A study of Homo sapiens with 8 samples.

Results

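The 8 genes described here belong to 2 cytokine families and were followed across 4 states of a human lung fibroblast line. They were the CC chemokines CCL2, CCL5, CCL7, CCL8 and CCL20 and the colony-stimulating factors CSF1, CSF2 and CSF3. They were taken by name from a deposited table of read counts over 54628 genes, which held all 8. Of these, 5 (CCL2, CCL20, CSF1, CSF2 and CSF3) had enough counts to enter the test, among 17155 genes tested in all. CCL5, CCL7 and CCL8 did not, and their counts are given below.

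The cells were IMR90 lung fibroblasts immortalised with hTERT, the telomerase subunit that lets a culture keep dividing. All 4 groups carried a pinducer20 vector, which is switched on by doxycycline, with YAP5SA, a mutant of the transcriptional co-activator YAP in which serines that restrain it are replaced, tagged with Flag at its N terminus. The groups had 2 RNA-seq libraries each. Proliferating cells had neither drug and proliferating_dox cells had 1 ug/ml doxycycline for 11 days. Senescent cells had been exposed to 10 ug/ml bleomycin, a DNA-breaking drug, for 24 h and were taken 9 days later, and senescent_dox cells had both drugs on those terms. In senescent_dox cells the 11 days are longer than the 24 h and 9 days together, so doxycycline began before bleomycin. Doxycycline in senescent cells, as written below, means senescent_dox against senescent libraries. A change in cells already senescent and an altered response to bleomycin cannot be told apart. The cells were kept at 3% oxygen. No group received doxycycline without the transgene, so an effect of the drug and an effect of YAP5SA cannot be told apart. The labels name 1 line and do not say that libraries of a group came from separate cultures, so p-values measure the spread between these libraries, which may be technical.

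CC chemokines are small secreted proteins with adjacent cysteines that guide leukocytes through receptors of the CCR family. CCL2, CCL7 and CCL8 attract monocytes, CCL5 attracts T cells and monocytes, and CCL20 is the ligand of CCR6 on dendritic and lymphoid cells. CSF1 (M-CSF) keeps macrophages alive, CSF2 (GM-CSF) and CSF3 (G-CSF) drive myeloid cells and neutrophils, and fibroblasts secrete several of these factors when they are inflamed or senescent. Many of these genes are known targets of NF-kappaB, and several have short-lived mRNAs with repeated ATTTA letters (AUUUA in RNA) after the stop codon.

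The bases just before the start of transcription are shown for the members found in the RefSeq promoter table (build GRCh38.p14), which were 4 of 8. CCL20 and CSF2 rose steeply from a few reads after bleomycin, and CCL7 and CCL8 had almost no reads, so the pairs stand at the ends of the range. Each line gives the plus strand, 5′ to 3′, up to the base before the start. Capitals mark matches on either strand to GGGNNNNNCC (kappaB-like), TGANTCA (AP-1-like), GGAATG (TEAD-like) and TATAAA.
CCL20, chr2:227813717-227813841: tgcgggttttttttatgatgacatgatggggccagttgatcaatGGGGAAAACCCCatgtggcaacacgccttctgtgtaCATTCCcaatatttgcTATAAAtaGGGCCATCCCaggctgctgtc
CSF2, chr5:132073664-132073788: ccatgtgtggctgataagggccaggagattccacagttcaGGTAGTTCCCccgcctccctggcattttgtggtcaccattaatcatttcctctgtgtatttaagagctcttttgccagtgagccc
CCL7, chr17:34270096-34270220: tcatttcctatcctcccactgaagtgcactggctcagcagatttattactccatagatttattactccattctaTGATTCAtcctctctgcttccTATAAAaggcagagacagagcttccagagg
CCL8, chr17:34319310-34319434: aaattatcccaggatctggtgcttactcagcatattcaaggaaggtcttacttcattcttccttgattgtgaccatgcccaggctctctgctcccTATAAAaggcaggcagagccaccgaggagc

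The CCL20 stretch held kappaB-like letters that began 81 and 21 bases before the start, TEAD-like letters at 45 and TATAAA at 29. The CSF2 stretch held a kappaB-like match at 85. CCL7 had AP-1-like letters at 51 and TATAAA at 30, and CCL8 had TATAAA at 30. In 125 bases before the start of 27305 promoters, 38.6% held the kappaB-like letters, 3.44% the AP-1-like letters, 5.86% the TEAD-like letters and 6.19% TATAAA. The letters searched were chosen after the stretches were seen, the kappaB-like pattern is loose, and a match is a description of the sequence.

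The part after the stop codon was read from the longest coding transcript of each gene in GENCODE v29. CSF2 had 8 copies of ATTTA in 318 bases, or 25.2 per kb, and 0.0307% of 19536 coding genes were at least as dense. Genes with fewer than 100 bases after the stop codon were counted as less dense. Its densest 30 bases and those of CSF3 are shown because they show how the copies overlap in one gene and are spaced in the other.
CSF2: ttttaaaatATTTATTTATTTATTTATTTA
CSF3: tcccatgtATTTAtctctATTTAatATTTA

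CSF3 had 7 copies in 854 bases (8.20 per kb), CCL8 had 5 in 495 (10.1 per kb) and CCL20 had 3 in 481 (6.24 per kb). CSF1 had 4 in 2154 bases (1.86 per kb), CCL2 had 1 in 376 (2.66 per kb) and CCL7 had 1 in 440 (2.27 per kb). CCL5 had no copy in 886 bases, and the median over the 17976 genes with at least 100 such bases was 1.6 per kb.

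The libraries held 33627708 to 39692162 counts. Mitochondrial genes took 3.82% and 3.31% in senescent_dox libraries and 5.59% to 7.05% in those of the other groups. Of 10 fibroblast markers all were present, with a summed level of 31467 to 33158 CPM in senescent and 13823 to 16583 CPM in senescent_dox cells (CPM are counts relative to the library total, scaled by TMM factors). Between these groups 7 of the 10 were lower, collagens among them, and 2 were higher, beside 23.8% lower and 22.6% higher over all genes. LUM was at 55.5 ± 0.297 and 203 ± 10.5 CPM (SD, n = 2). The part of these differences in the members' values was not tested. Of 12 leukocyte markers, 12 stayed under 1 CPM in every library, 2 had no counts, and their sum was 0.898 to 1.68 CPM. Endothelial markers summed to 48.6 to 157 CPM, nearly all of it TEK, and 8 epithelial markers to 0.802 to 2.43 CPM, with CDH1 at 1.09 ± 0.0785 CPM (SD, n = 2) in senescent_dox cells. YAP1 itself was at 195 to 198 CPM in proliferating, 190 and 238 CPM in proliferating_dox, 190 and 223 CPM in senescent and 287 and 291 CPM in senescent_dox libraries. Its log2 change with doxycycline was 0.48 in senescent cells (adjusted p = 0.00140) and 0.12 in proliferating cells (adjusted p = 0.431), and the table does not separate the transgene from the endogenous gene. In bulk RNA, a smaller share of cells expressing a gene and less of its RNA per cell cannot be told apart.

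**Figure D1:**
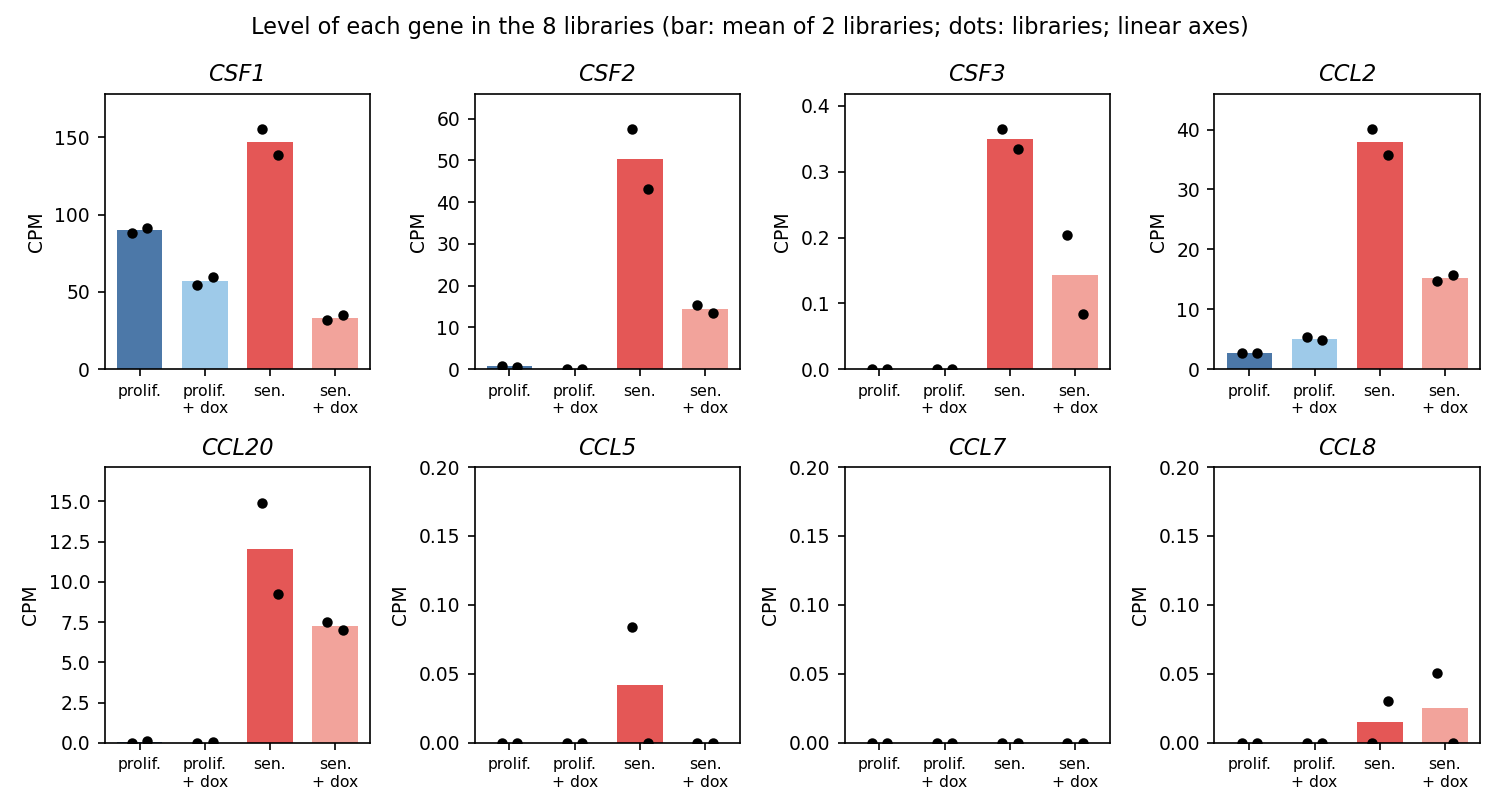
Level of each of the 8 genes in CPM (linear axes with their own scale) in the 4 groups. Bars are means of 2 libraries and dots the libraries. CSF1 is present in all groups, CSF2, CCL2 and CCL20 are highest in senescent cells without doxycycline, and CCL5, CCL7 and CCL8 stay under 0.1 CPM.

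CSF1 was the one member with a high level in dividing cells (chromosome 1, 109910506 to 109930992, GRCh38). It stood at 88.4 and 91.3 CPM in proliferating libraries, 54.5 and 59.5 in proliferating_dox, 155 and 139 in senescent and 31.6 and 35.1 in senescent_dox libraries. The 4 groups did not overlap, and senescent_dox libraries were the lowest. Bleomycin without doxycycline raised it by 0.71 on the log2 scale (SE 0.0845, adjusted p = 2.91e-06). With doxycycline in both groups, the bleomycin libraries were lower, by a log2 change of -0.77 (SE 0.0878, adjusted p = 2.11e-06). The direction of the bleomycin difference in CSF1 was thus opposite in the 2 settings.

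CSF2, on chromosome 5 from 132073789 to 132076170, was close to silent before bleomycin. It had 30 and 25 counts (0.732 and 0.626 CPM) in proliferating libraries and 1 and 7 counts in proliferating_dox libraries. It had 2049 and 1417 counts (57.4 and 43.1 CPM) in senescent and 605 and 481 counts (15.4 and 13.5 CPM) in senescent_dox libraries. No groups overlapped. The rise with bleomycin was 73.6-fold without doxycycline (log2 6.20, SE 0.214, adjusted p = 2.43e-11). With doxycycline it was 7.04 on the log2 scale (SE 0.307, adjusted p = 3.71e-10), from 8 counts in the lower group. That value was 6.37 without proliferating_dox replicate 1 and 8.77 without proliferating_dox replicate 2.

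CSF3, on chromosome 17 from 40015440 to 40017813, was detected at a few reads and only after bleomycin. It had 13 and 11 counts in senescent and 8 and 3 counts in senescent_dox libraries, and none in the other 4. The senescent level was 0.349 ± 0.0210 CPM (SD, n = 2), at least 9.42-fold above a floor of 3 counts over the proliferating group. CSF3 could pass the count filter through the senescent libraries, where it is high, so its calls with bleomycin are a description. The senescent_dox level was 0.144 ± 0.0847 CPM, at least 3.60-fold above the floor of its own control (adjusted p = 0.0124). That call was lost without proliferating_dox replicate 1 (adjusted p = 0.0501), without proliferating_dox replicate 2 (0.0636) and without senescent_dox replicate 1 (0.101). Floors and counting intervals here cover counting error only.

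CCL2 lies at the head of a chemokine cluster on chromosome 17 (34255285 to 34257203). It had 109 and 109 counts in proliferating, 182 and 201 in proliferating_dox, 1429 and 1178 in senescent and 579 and 561 in senescent_dox libraries. The group levels were 2.70 ± 0.0497, 5.12 ± 0.337, 37.9 ± 2.97 and 15.2 ± 0.669 CPM (SD, n = 2). The groups did not overlap, and the order from low to high was proliferating, proliferating_dox, senescent_dox and senescent. Bleomycin raised it 14.1-fold without doxycycline (log2 3.81, SE 0.120, adjusted p = 6.78e-13) and by 1.57 on the log2 scale with doxycycline (SE 0.112, adjusted p = 1.15e-08).

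CCL20 lies on chromosome 2 from 227813842 to 227817556. It had no counts and 4 counts in the proliferating libraries, no counts and 1 count with doxycycline, 532 and 303 counts (14.9 and 9.21 CPM) in senescent and 295 and 250 counts (7.51 and 6.99 CPM) in senescent_dox libraries. The bleomycin libraries stood far above the others, and the senescent pair had the wider spread (12.05 ± 4.02 CPM against 7.25 ± 0.368, SD, n = 2). The log2 rise with bleomycin was 7.84 without doxycycline (SE 0.497). It was 6.86 without proliferating replicate 1 and 11.81 without proliferating replicate 2, which held the 4 counts. With doxycycline the ratio of summed counts, scaled for library size, was 546 on a single count in the lower group. The 95% counting interval of this ratio ran from 97.6 to 21612. CCL20 could pass the count filter through the bleomycin libraries, where it is high, so its calls with bleomycin are a description.

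CCL7 and CCL8 follow CCL2 in that cluster, at 34270221 and 34319435. CCL7 had no counts in any library, which allows up to 0.0371 to 0.0437 CPM in a group (3 counts over its 2 libraries). CCL8 had 1 count in senescent replicate 2 and 2 counts in senescent_dox replicate 1. Between them lies CCL11, the eosinophil chemokine eotaxin, with no counts in the 4 libraries without doxycycline, 8 and 10 counts in proliferating_dox and 33 and 51 counts in senescent_dox libraries. CCL11 was thus at least 6.45-fold higher with doxycycline in proliferating cells and at least 25.9-fold higher in senescent cells. It passed the count filter through the doxycycline libraries, so these folds are a description. Its neighbour CCL2 also rose with doxycycline in proliferating cells but fell in senescent cells. CCL13, the next gene, had 3 and 5 counts in senescent_dox libraries and none in the others, and CCL1 had none at all.

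CCL5 had 3 counts in senescent replicate 1 and none in the other 7 libraries, but its region did not count evenly. Of 20 coding genes within 1 Mb of it with at least 100 counts summed over the libraries, 4 differed more than 3-fold between replicates of a group, against 234 of 12246 coding genes (1.91%). The 4 were TAF15, ZNHIT3, MYO19 and GGNBP2, with largest ratios of 9.60, 35.9, 59.9 and 29.4. Between TAF15 and ZNHIT3 (chromosome 17, 35847242 to 36486681) lie CCL5 and 9 other CC chemokines, and those 9 had no counts in any library. How reads that map to several places were handled is not given in the sources used here, its part in these values was not tested, and a low CCL5 count is therefore not read as a low level. The same share was 0 of 9, 0 of 3, 0 of 26 and 0 of 18 genes around CCL2, CCL20, CSF1 and CSF2, and 1 of 27 around CSF3.

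**Figure D2:**
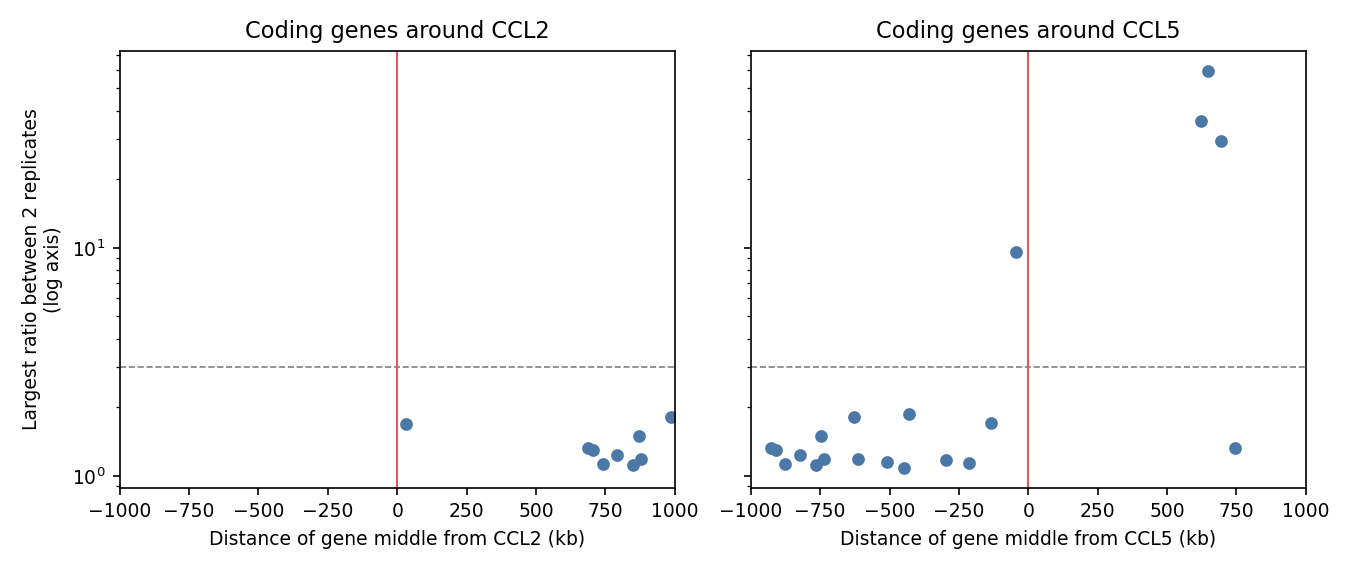
Largest ratio between the 2 replicates of a group (log axis) for each coding gene within 1 Mb of CCL2 (left) and CCL5 (right), by distance in kb from the gene's start (red line). The dashed line marks 3-fold. Around CCL2 all 9 genes lie under it, and around CCL5 4 of 20 lie above it.

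Summed over the 8 members, the level was 91.8 and 94.8 CPM in proliferating, 59.9 and 64.5 in proliferating_dox, 268 and 227 in senescent and 69.5 and 71.3 in senescent_dox libraries. CSF1 made up 96.3% to 96.4% of the sum in proliferating cells, 57.9% and 61.0% in senescent cells and 45.5% and 49.2% in senescent_dox cells. The sum was below the proliferating level in senescent_dox cells although its makeup had moved from CSF1 to CSF2 and CCL2. Per kb of the longest coding transcript, the senescent order was CSF2 (63.8 CPM per kb), CCL2 (51.2), CSF1 (34.9), CCL20 (14.4) and CSF3 (0.209). With the shorter CSF1 transcript of 2.484 kb, CSF1 came to 59.1 CPM per kb, so its place beside CSF2 and CCL2 depends on the transcript. In senescent_dox cells CCL2 stood at 20.5, CSF2 at 18.3, CCL20 at 8.64 and CSF1 at 7.92 CPM per kb (13.4 with the shorter transcript), and CCL2 and CSF2 were close together.

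In bleomycin against proliferating cells without doxycycline, 5 of 5 tested members rose, beside 59.2% of all genes called in either direction, 29.8% higher and 29.4% lower. CSF3 and CCL20 could pass the count filter through the bleomycin libraries, where they are high, so this count is a description. The members' median log2 change, with CSF3 at its lower bound, was 3.81 and that of all genes 0.01. With library totals in place of TMM factors, 37.1% of the called genes were higher, against 50.3%, and the median of all genes was -0.16. Relative to that median the members kept their values, CSF1 being 0.69 higher on the log2 scale. With doxycycline in both groups, 4 of 5 rose and CSF1 fell, beside 55.5% called, 26.8% higher and 28.7% lower. This count, with CSF3 and CCL20 in it, is a description too. The medians, taken the same way, were 1.85 and -0.01, and the 1.85 is the CSF3 bound itself, from 11 counts. These 2 comparisons share no library.

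**Figure D3:**
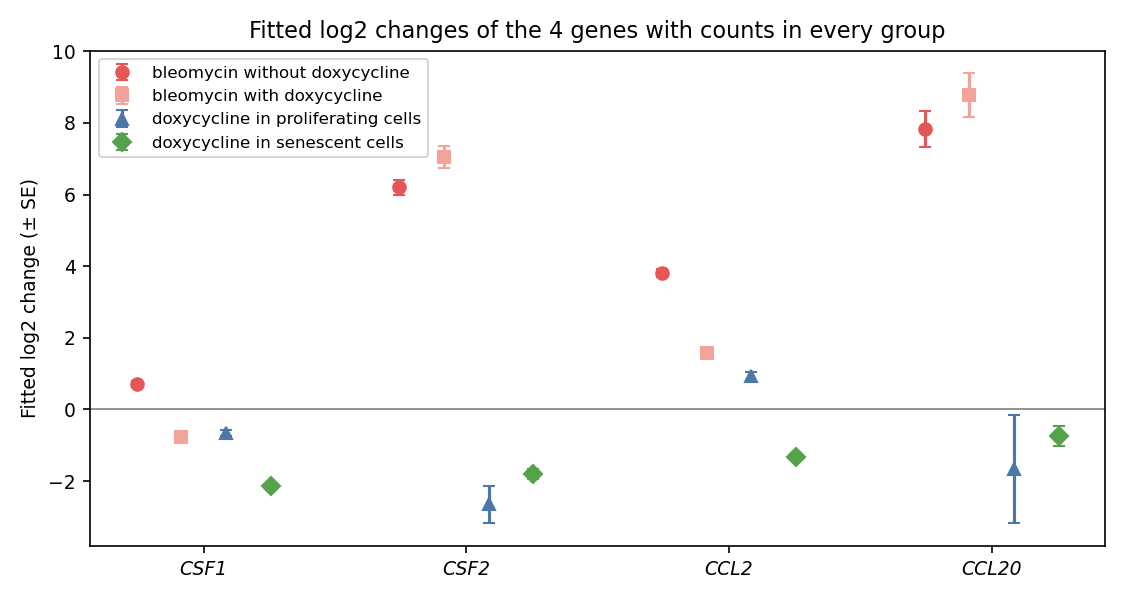
Fitted log2 change with its standard error for the 4 genes with counts in every group, in 4 comparisons. CSF1 lies above 0 for bleomycin without doxycycline and below 0 with it, and CCL2 lies above 0 for doxycycline in proliferating cells and below 0 in senescent cells.

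Doxycycline was compared with its absence in each state. In proliferating cells, 1 of 5 rose (CCL2) and 2 fell (CSF1 and CSF2), beside 23.0% of genes called, 12.6% higher and 10.4% lower, and the medians were -1.16 over the 4 members with counts and 0.00 over all genes. CCL2 rose by 0.92 (SE 0.129, adjusted p = 8.40e-05), CSF1 fell by 0.66 (SE 0.0856, adjusted p = 4.13e-05) and CSF2 fell by 2.64 (SE 0.516, adjusted p = 0.00218) on the log2 scale. CSF2 was a low gene in both groups there, and its change was -1.98 without proliferating_dox replicate 1 and -4.38 without proliferating_dox replicate 2. CCL20 had 4 counts against 1, a ratio of 3.72 with a counting interval of 0.368 to 183, and did not pass (adjusted p = 0.483). The median of -1.16 lies between the values of CSF1 and CCL20, so it leans on these few counts. CSF3 had no counts in either group.

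In senescent cells, 4 of 5 members fell with doxycycline, beside 46.3% of genes called, 22.6% higher and 23.8% lower, and the medians were -1.32 and 0.00. CSF1 had the largest fall, of 2.14 on the log2 scale (SE 0.0891, adjusted p = 7.95e-11), followed by CSF2 with 1.80 (SE 0.150, adjusted p = 5.31e-07) and CCL2 with 1.32 (SE 0.101, adjusted p = 5.47e-08). CCL20 fell by 0.73 (SE 0.275, adjusted p = 0.0477). CSF3 had a log2 change of -1.24 (SE 0.687, adjusted p = 0.157), which was -2.01 without senescent_dox replicate 1 and -0.77 without senescent_dox replicate 2. The CCL20 call was lost with library totals (adjusted p = 0.110), and without proliferating_dox replicate 1 (0.0505), senescent replicate 1 (0.389), senescent_dox replicate 1 (0.158) or senescent_dox replicate 2 (0.191). With library totals, 69.3% of called genes were higher, against 48.7%, and the median of all genes was 0.17. Relative to it CSF1, CSF2 and CCL2 were at -2.14, -1.79 and -1.31. This comparison shares the senescent libraries with the bleomycin comparison above, and the members' values in the 2 comparisons are not independent.

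Whether the difference with doxycycline changed with bleomycin was tested as an interaction. It was called for 2 of 5 members, both lower, beside 19.9% of genes, 8.08% higher and 11.8% lower. CCL2 had an interaction of -2.24 (SE 0.164, adjusted p = 4.03e-07), with a rise in proliferating and a fall in senescent cells. CSF1 had one of -1.48 (SE 0.122, adjusted p = 1.15e-06), with a larger fall in senescent cells. The CSF2 interaction was 0.84 (SE 0.581, adjusted p = 0.342), and ran from 0.17 without proliferating_dox replicate 1 to 2.58 without proliferating_dox replicate 2. It did not pass in either case. The CCL20 interaction was 0.93 (SE 1.44, adjusted p = 0.702), on 5 counts in the 4 proliferating libraries, and the CSF3 interaction could not be estimated. The median over the 4 members with an estimate was -0.32, and that over all genes -0.03. With library totals, 70.5% of called interactions were higher, against 40.7%, while CCL2 and CSF1 were -2.21 and -1.45 relative to the median of 0.15.

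Of 21 other CC chemokines, 13 had no counts in any library and 3 were tested. Of those 13, 9 lie in the CCL5 stretch, where a count of 0 is not read as absence. The 3 tested were called higher with doxycycline in senescent cells, beside 22.6% of all genes. CCL11 and CCL28 could enter the test through the senescent_dox libraries, where they are high, so their calls are a description. CCL26, an eosinophil chemokine like CCL11, was at 0.321 ± 0.00593, 0.676 ± 0.0400, 0.723 ± 0.205 and 1.87 ± 0.347 CPM (SD, n = 2) in proliferating, proliferating_dox, senescent and senescent_dox cells. It rose by 1.36 with doxycycline in senescent cells (SE 0.315, adjusted p = 0.00238), against the fall of CCL2, CSF1 and CSF2. CCL28, a mucosal chemokine, had 1 count in senescent and 23 in senescent_dox cells, a ratio of 21.0 with a counting interval of 3.42 to 866.

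Receptors of these ligands were low. Of 14 CC chemokine receptors, 6 were tested, and 2 rose with bleomycin without doxycycline, beside 29.8% of all genes. CCR1, a receptor of CCL5 and CCL7, had 33 and 25, 8 and 11, 163 and 151, and 23 and 24 counts in the libraries of proliferating, proliferating_dox, senescent and senescent_dox cells, and was highest in senescent cells. It rose by 2.67 with bleomycin (SE 0.258, adjusted p = 2.82e-07) and fell by 2.86 with doxycycline in senescent cells (SE 0.264, adjusted p = 4.25e-07). CCR7, a receptor of CCL19 and CCL21, was higher by 2.66 with bleomycin. It could enter the test through the bleomycin libraries, where it is high, so its call and the count of 2 are a description. It had 5 and 16 counts in the proliferating libraries, and the change was 2.03 without proliferating replicate 1 and 3.73 without proliferating replicate 2. ACKR2, a scavenger of CC chemokines, had 3 counts in senescent and 48 in senescent_dox cells, a ratio of 14.6 with a counting interval of 4.72 to 73.4. In senescent cells with doxycycline 1 of the 6 was higher and 2 were lower, beside 22.6% and 23.8% of all genes. The higher one was ACKR2, which could enter the test through the senescent_dox libraries, so its call is a description. The medians of the 6 were 0.65 with bleomycin and -0.63 with doxycycline in senescent cells.

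Among CSF receptors and linked ligands, 2 of 6 were tested. CSF2RB, the signalling beta chain shared by the receptors of CSF2, IL-3 and IL-5, had no counts and 1 count in proliferating, 104 and 126 in proliferating_dox, 37 and 23 in senescent and 717 and 814 in senescent_dox libraries. The doxycycline libraries were above their controls in both states, where those of its ligand CSF2 were below. With doxycycline in senescent cells it rose by 4.55 (SE 0.216, adjusted p = 2.83e-10), from 0.868 ± 0.238 to 20.5 ± 3.19 CPM (SD, n = 2). In proliferating cells the ratio was 247 on 1 count, with an interval of 44.0 to 9815. CSF1R, the receptor of CSF1, was at 0.731 ± 0.206 CPM in proliferating and 0.268 ± 0.0555 CPM in senescent_dox cells, and CSF2RA, which has copies on both sex chromosomes, had no counts. IL3, beside CSF2 on chromosome 5, had 3 counts, in senescent cells.

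**Figure D4:**
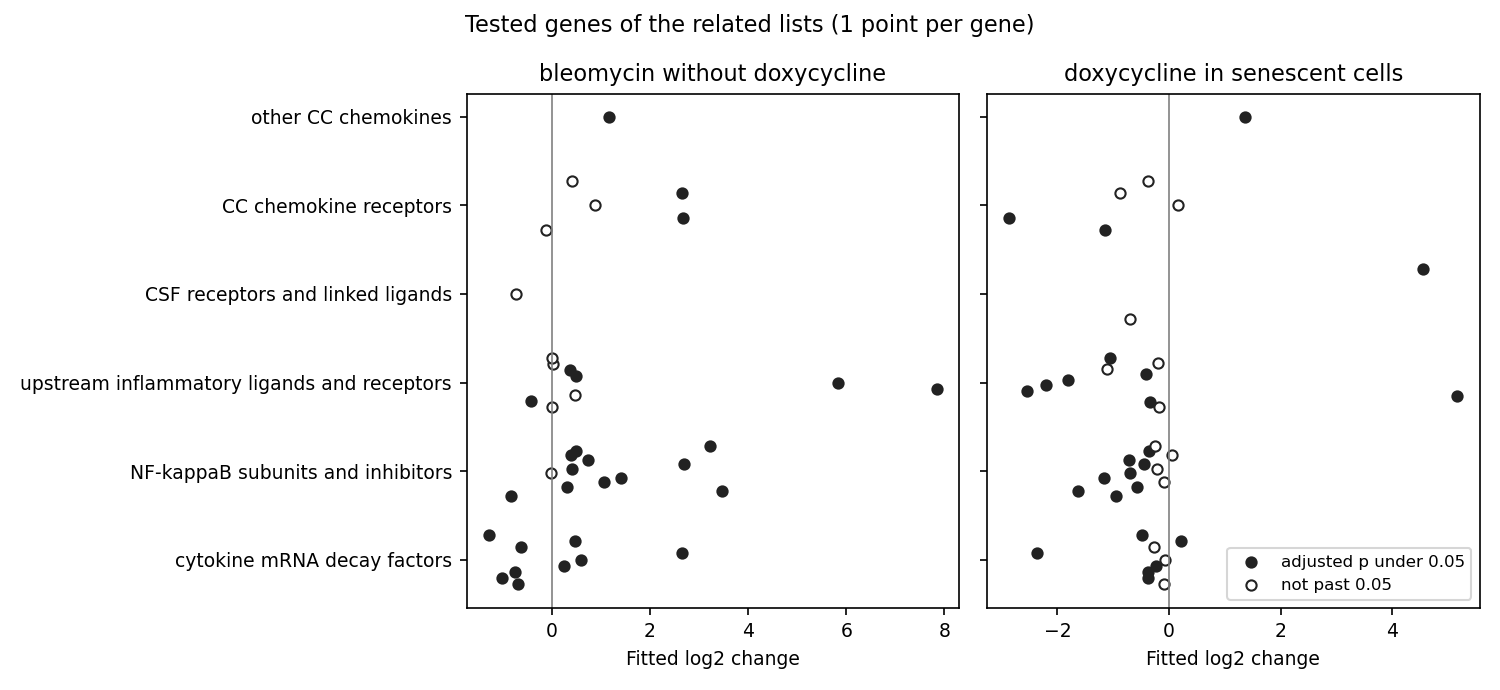
Fitted log2 change of each tested gene of 6 related lists (rows) with bleomycin without doxycycline (left) and with doxycycline in senescent cells (right). Filled points passed an adjusted p of 0.05, and genes with 3 counts or fewer in a compared group are left out. IL1A and IL1B are the points furthest right in the left panel, and IL18 and CSF2RB in the right.

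IL-1 and TNF are known to switch several of these genes on. Of 12 ligands and receptors of the IL-1, TNF and IL-17 systems, 10 were tested, and 5 rose and 1 fell with bleomycin (median log2 change 0.43), a share near the 59.2% called over all genes. Among the 5 was IL1RN, which could enter the test through the senescent libraries, where it is high, so this count is a description. With doxycycline in senescent cells, 1 rose and 6 fell (median -0.74), beside 22.6% higher and 23.8% lower over all genes. IL1A was at 133 and 84.8 CPM in senescent and 20.8 and 16.4 CPM in senescent_dox libraries, and under 1 CPM in the other 4. It rose by 7.85 with bleomycin (SE 0.404, adjusted p = 1.29e-05) and fell by 2.55 with doxycycline (SE 0.263, adjusted p = 0.000571). IL1B went from 2.47 and 1.88 CPM to 145 and 104 CPM and, with doxycycline, 31.8 and 22.0 CPM, a fall of 2.21 (SE 0.241, adjusted p = 0.000575). IL1R1, their receptor, fell by 1.82 with doxycycline in senescent cells (adjusted p = 2.24e-06), and TNF had no counts. IL18, a cytokine of the same family, had 6 counts in senescent and 245 in senescent_dox cells (log2 5.17). It could enter the test through the doxycycline libraries, where it is high, so its call as the 1 that rose is a description.

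NF-kappaB subunits and inhibitors were all tested, 12 of 12. With bleomycin 10 rose and 1 fell (median 0.61), beside 29.8% higher and 29.4% lower over all genes. With doxycycline in senescent cells 8 fell and 4 did not pass (median -0.51), beside 23.8% lower over all genes. The 4 largest rises with bleomycin were in BIRC3, TNFAIP3, NFKBIZ and NFKBIA, feedback genes that NF-kappaB itself is known to induce. BIRC3, a ubiquitin ligase of the pathway, rose by 3.46 with bleomycin (SE 0.110, adjusted p = 7.71e-13) and fell by 1.63 with doxycycline in senescent cells (SE 0.0982, adjusted p = 3.82e-09). TNFAIP3 and NFKBIZ were at 32.6 ± 2.27 and 71.1 ± 0.189 CPM in senescent and 27.5 ± 2.55 and 52.1 ± 0.111 CPM in senescent_dox cells (SD, n = 2), a smaller difference than in NFKBIA, which was at 125 ± 18.4 and 55.6 ± 1.67 CPM. NFKBIA, the inhibitor IkappaB-alpha, fell by 1.17 (SE 0.0929, adjusted p = 7.65e-08).

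Factors that shorten or lengthen the life of cytokine mRNAs with ATTTA or stem-loop elements were tested in 9 of 9 cases. With bleomycin 4 rose and 5 fell (median -0.62), beside 59.2% called over all genes, and with doxycycline in senescent cells 1 rose and 5 fell (median -0.28), beside 46.3%. ZFP36L2, which binds ATTTA elements, fell by 1.28 with bleomycin (SE 0.0820, adjusted p = 2.29e-09), from 88.8 ± 1.22 to 36.5 ± 2.80 CPM (SD, n = 2). ZC3H12A (Regnase-1), a nuclease for inflammatory mRNAs, differed from ZFP36L2. It was at 34.8 and 28.5 CPM in senescent libraries, 6.14 and 6.15 in senescent_dox, 5.30 and 4.84 in proliferating and 3.47 and 3.96 in proliferating_dox libraries. It rose by 2.64 with bleomycin (SE 0.129, adjusted p = 9.24e-11) and fell by 2.37 with doxycycline in senescent cells (SE 0.127, adjusted p = 1.07e-09). All lists share the libraries of the members, so their changes are not independent of them.

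The genes nearest to each tested member in pattern were sought by Pearson's r of log2 CPM over the 8 libraries, which fall in 4 groups. For CCL2 the nearest was IFIT1, an interferon-induced gene (r = 0.998), at 16.8, 40.6, 381 and 144 CPM in proliferating, proliferating_dox, senescent and senescent_dox cells. IFIT1 lies inside the span of LIPA, and its counts are uncertain where strand was not used. SMURF2 and PPIC followed (r = 0.994 and 0.993). For CCL20 the nearest was PTGS2, the inducible prostaglandin synthase COX-2 (r = 0.995), at 1.54, 0.954, 30.3 and 19.3 CPM, then TMEM127 and TMEM102. For CSF1 they were ADGRA2 (r = 0.995), RECQL and TRHDE-AS1, for CSF2 PHF21A (r = 0.997), TG and FBXO38, and for CSF3 FBXW7 (r = 0.997), NAMPT and MITF. With 4 group levels, many genes reach such values, and r is given as a description.

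The coding genes next to 3 members were read beside them. P4HA2, a collagen prolyl hydroxylase next to CSF2, was at 184, 167, 1086 and 782 CPM in proliferating, proliferating_dox, senescent and senescent_dox cells. It rose by 2.56 with bleomycin (adjusted p = 1.03e-11), and its fall with doxycycline in senescent cells was 0.47 (adjusted p = 0.000976). DAW1, next to CCL20, rose with bleomycin without doxycycline by 2.02 (adjusted p = 1.70e-05), as CCL20 did. DAW1 also rose with doxycycline in senescent cells by 3.00 (adjusted p = 3.56e-08), where CCL20 was lower. MED24, next to CSF3, fell by 0.47 with bleomycin (adjusted p = 0.000484), where CSF3 was higher. With doxycycline in senescent cells MED24 fell by 0.34 (adjusted p = 0.00793), where the CSF3 change of -1.24 did not pass.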

How the data were processed

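RNA-seq libraries of 8 samples were analysed from 1 table of raw counts, reads per gene, as deposited by the authors. Per the labels' protocols, RNA was extracted with acid phenol and made into stranded poly(A) libraries (TruSeq Stranded mRNA). Tools and build, per the submitters' processing notes, were hg38, HISAT2 2.1.0, Trimmomatic 0.36 and featureCounts 1.6.3. The sources used here do not give their settings, the annotation or whether strand was used.

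Groups came from titles. Genes passing filterByExpr (17155 of 54628) were scaled with TMM factors and fitted in edgeR 4.0.16 (R 4.3.3; quasi-likelihood, robust, 4 groups, 4 residual degrees of freedom), with two-sided tests of 5 contrasts and Benjamini-Hochberg adjustment over all genes tested. A gene was called at an adjusted p under 0.05. SE is the log2 change divided by the root of F. The pipeline was tested on simulated counts with the same spread for all genes. In senescent libraries 100 genes were changed by 1 and 100 by 2 on the log2 scale. For bleomycin without doxycycline 99 and 100 were recovered, with 13 false calls among 16590 genes. For the interaction 88 and 100 were recovered, with 8 false calls. Changes in genes with few counts, and changes in as many genes as here, were not simulated. CPM used TMM-scaled totals. Replicates of a group differed beyond counting noise, so all 8 libraries were kept. The chi-square per degree of freedom was 3.64 in proliferating, 19.5 in proliferating_dox, 15.8 in senescent and 12.6 in senescent_dox cells. The fit shared its estimate of the spread over these groups. Alternatives were DESeq2 1.42.0, limma-voom (limma 3.58.1), other scalings and filters, replicate blocks and leaving out each library. The title's replicate numbers are not stated to pair libraries, and no pairing was used in the main fit (residual correlations of -0.0121 to 0.159 over 6 pairs).

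The members and gene lists were chosen with earlier results of these data known. Named genes were the 8 members, list genes by size of change, and for each tested member the 3 nearest in pattern (log2 CPM averaging 1 or more). The lists were other CC chemokines, their receptors, CSF receptors, upstream cytokines, NF-kappaB genes, mRNA decay factors and fibroblast, leukocyte, endothelial and epithelial markers. Promoters came from RefSeq (GRCh38.p14) and transcripts from GENCODE v29, both on the hg38 assembly.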

Additional observations from a re-analysis of the deposited data

Results flagged for a closer look

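The effect of doxycycline differed between senescent and proliferating cells, by the edgeR interaction test, for 2 of 5 tested members and 11 of 42 tested genes of the related lists (26.2%), beside 19.9% of all genes. Among cell type markers it was called for 7 of 10 fibroblast genes, 2 higher and 5 lower, and for TIE1 of 3 endothelial genes. The interaction, as the log2 change in senescent minus that in proliferating cells, was -2.24 for CCL2 and -1.48 for CSF1. Both kept their call in 17 of 17 alternatives. In the NF-kappaB list it was -1.42 for BIRC3, -0.85 for TNFAIP3, -0.80 for NFKBIB, -0.77 for NFKBIA and -0.62 for NFKBIZ. Among upstream receptors it was -1.30 for IL1R1 and -0.66 for TNFRSF1B. Among decay factors it was -1.92 for ZC3H12A and 0.48 for ZFP36L1, and the ZFP36L1 call was lost without proliferating replicate 1 and without proliferating replicate 2.

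CSF2RB had an interaction of -3.06 (adjusted p = 0.0107), which rests on 1 count in proliferating cells and was lost in 4 of 16 alternatives. CCR1 had one of -1.37 (adjusted p = 0.0401), lost in 13 of 16 alternatives.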

How the results depend on the processing

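Under 18 alternatives, CCL2, CSF1 and CSF2 kept the direction and side of the threshold of every comparison tested for them. The CSF3 and CCL20 calls lost are given with those genes. With genes kept only where log2 CPM averaged 1 or more, CCL20 and CSF3 were not tested, and 3 members were called for bleomycin without and 3 with doxycycline. The CCL20 change with doxycycline in proliferating cells ran from -3.97 to 2.31 with each library left out in turn, and its interaction from -3.05 to 3.23; 2.31 and -3.05 came without proliferating replicate 2, which held its 4 counts. With limma-voom the CCL20 interaction was -0.031. Leaving out each library in turn gave 2011 to 4155 called genes for doxycycline in proliferating cells, against 3938, and 1852 to 3903 interactions, against 3407. The counts fell most without proliferating replicate 1 (2099 and 1954) or replicate 2 (2011 and 1852), and interactions also without senescent_dox replicate 1 (2022). The cause was not tested. With a replicate block by the description's number, 2353 genes were called for doxycycline in proliferating cells, and by the title's number 4355; neither pairing changed a member's call. Few counts limit CSF3, CCL7 and CCL8, and CCL20 and CSF2 before bleomycin.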
